A study of Rattus norvegicus with 7 samples.

Results

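The 9 genes of phospholipid synthesis and turnover, the enzymes that build and break down the lipid of lung surfactant, were followed in alveolar type 2 cells of rats fed ethanol. The genes were Gpam, Chka, Pcyt1a, Pemt, Pcyt2, Pisd, Prdx6, Pla2g1b and Lcat. A probe set, the group of short probes that reads 1 transcript on an Affymetrix array, was taken whenever its platform annotation gave 1 of these 9 symbols. All 9 genes were measured, by 19 of the 8740 probe sets tested, and they are 9 of the 4736 genes that a probe set with 1 symbol reads. The probe sets were taken by gene name and not by their values, but the 9 genes were chosen with earlier results of these data known.

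The arrays came from 3 male Sprague Dawley rats on a Lieber-DeCarli liquid diet in which ethanol supplied 36% of calories, and from 4 male Sprague Dawley rats on the isocaloric diet without ethanol. Both diets lasted 6 weeks. The ethanol arrays are called ethanol 2, 3 and 4 and the others control 1 to 4, after their titles, and each array is 1 animal per the design text. The ethanol numbering starts at 2, and no ethanol 1 was analysed here. No label gives the animals' age. The type 2 cells were isolated by an immuno-absorption method and RNA was extracted with Trizol, so each array read a cell isolate rather than a single cell type. In the titles, every ethanol array has a higher array number than every control, so diet and array number cannot be told apart.

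Surfactant is mostly phosphatidylcholine, above all the dipalmitoyl form, which type 2 cells make, store in lamellar bodies and secrete. Phosphatidylcholine is built mainly by the CDP-choline route. In it choline is phosphorylated, activated with CTP and joined to diacylglycerol, whose backbone comes from acylated glycerol 3-phosphate. Used surfactant is partly taken back by type 2 cells, and phospholipases release its fatty acids for reuse.

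The values are log2 expression levels, so a difference of 1 is a factor of 2 in signal. On the controls, 25% of all probe sets had a mean under 3.84, 50% under 4.59, 75% under 5.48 and 95% under 7.18. Probe sets bind with different strength, so these marks place a probe set on the array's scale and do not rank genes by transcript abundance. Any pair of arrays had a correlation between 0.929 and 0.983, and control 2 stood apart on the first principal component. The surfactant protein genes that define the type 2 cell were near the top of the scale on every array. Sftpc lay at 12.58 ± 0.19 in ethanol isolates and 12.80 ± 0.04 in controls, and Sftpb at 11.49 ± 0.24 and 11.37 ± 0.06 (SD, n = 3 and n = 4). Of 8 measured type 2 cell markers, 4 were higher with ethanol and 4 lower. Their differences, ethanol minus control by brightest probe sets, ran from -0.53 (Foxa2) to 0.23 (Sftpa1). Lyz2, a lysozyme gene of macrophages that type 2 cells of rodents also express, lay at 11.54 ± 0.34 and 11.82 ± 0.27. Of 8 measured macrophage and monocyte markers, 5 were higher with ethanol and 3 lower, from -0.27 (Lyz2) to 0.63 (Ctss). In the test described below, 0 genes of the type 2 and macrophage lists passed the adjusted threshold. Scgb1a1, which marks the club cells of the airways, lay at 9.24 ± 0.14 and 9.28 ± 0.40 (SD, n = 3 and n = 4).

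None of the 9 genes had a difference between the diets that passed the threshold after adjustment over all probe sets. In limma, a linear model with moderated variances, 0 of the 19 probe sets had a Benjamini-Hochberg adjusted p under 0.05, where 0.149% of all probe sets did. Their adjusted p ran from 0.967 to 0.999. At an unadjusted p under 0.05 there was 1 of 19, Lcat, against 4.58% of all probe sets. Lcat was also the 1 member whose ethanol and control arrays did not overlap, as was so for 5.24% of all probe sets. A count of 1 in 19 is near both of these shares, and so is no result about the 9 genes as a group. The differences, always ethanol minus control, ran from -0.42 to 0.45, with 7 above 0 and 12 below. Their median was -0.06, beside -0.01 over all 8740 probe sets.

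The intervals say how large a difference in signal these arrays leave room for. Of the 19 intervals of 95% confidence, each for its own probe set alone, 18 lay wholly within a 2-fold difference in either direction and 10 within a 1.5-fold one. The 10 include 4 Gpam probe sets with a mean under 4. Dim probe sets may understate differences, so their narrow intervals do not bound a change in the transcript. The standard errors of the members ran from 0.11 to 0.28, with a median of 0.16, against a median of 0.15 over all probe sets. In simulated arrays of the same size, 200 probe sets were changed by 1.5, 2 or 4-fold. There, 35.2% of 1.5-fold and 76% of 2-fold differences passed limma's adjusted threshold. In these data only 13 of the 8740 probe sets passed. The adjusted threshold is stricter when fewer probe sets pass, so the simulated shares are likely too high for these arrays. A difference of the smaller size would often be missed, and a 2-fold difference could be missed too.

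**Figure D1:**
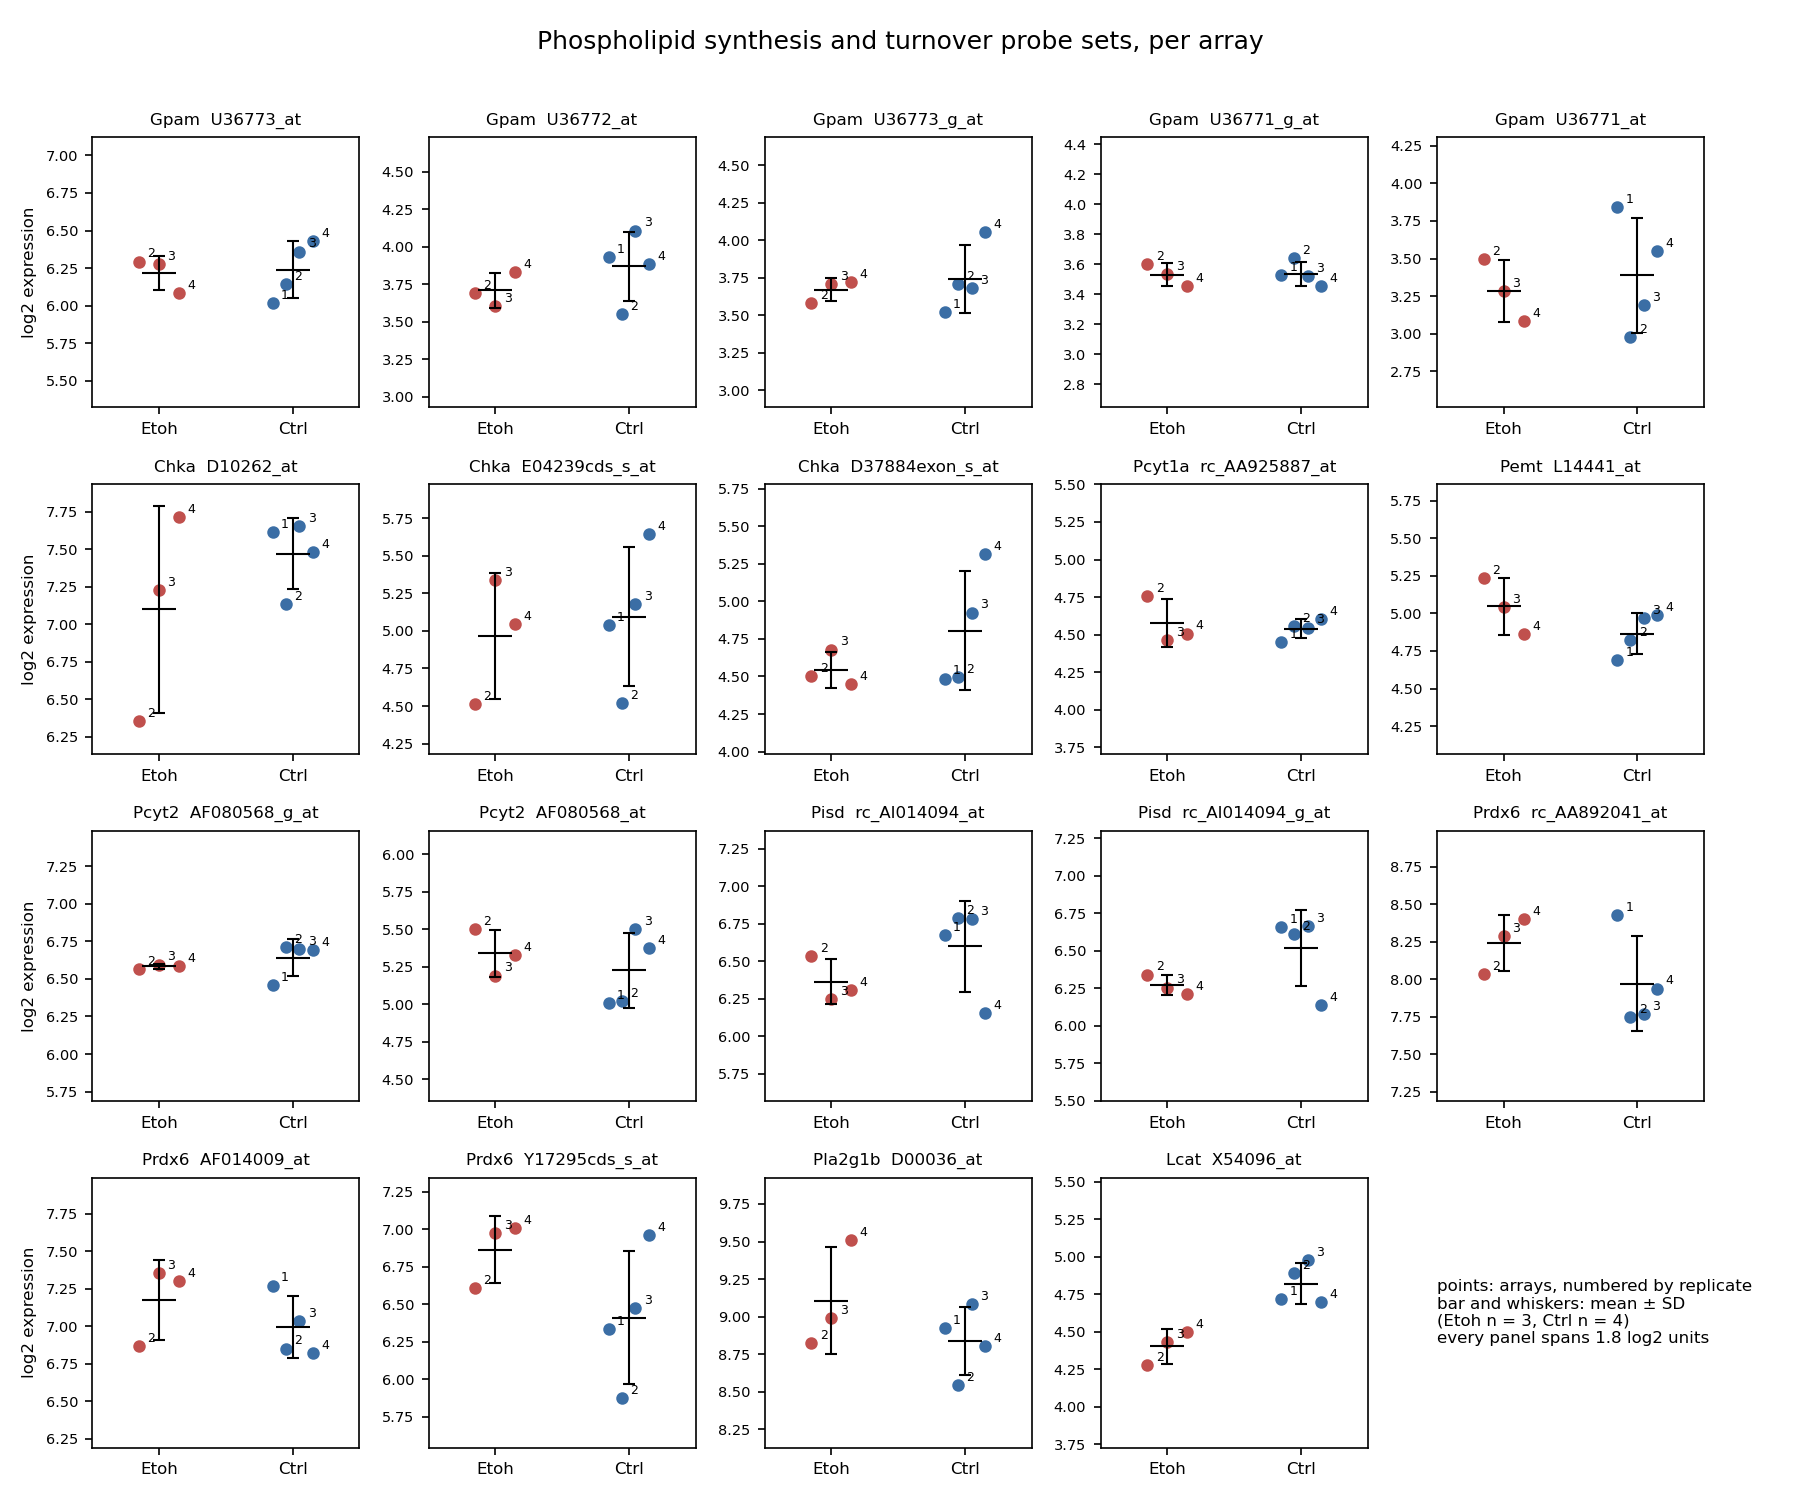
Log2 expression on each array (points, numbered by replicate) for the 19 probe sets, with ethanol (Etoh, n = 3) left of control (Ctrl, n = 4), and mean ± SD as bar and whiskers; every panel spans the same height. The groups overlap in all panels but that of Lcat, and the ethanol points of Chka D10262_at spread from 6.35 to 7.71.

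Synthesis begins with the glycerol backbone. Gpam encodes the mitochondrial glycerol 3-phosphate acyltransferase, which puts the first fatty acid, usually a saturated one, on glycerol 3-phosphate. Of its 5 probe sets, U36773_at was the one above the 75% mark of the array, at 6.29, 6.27 and 6.09 in ethanol 2, 3 and 4, against 6.02, 6.15, 6.36 and 6.43 in controls 1 to 4. The ethanol values lay inside the control range. The difference was -0.02 (95% confidence interval -0.33 to 0.29, limma adjusted p = 0.994).

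The other 4 Gpam probe sets were dim. U36772_at averaged 3.71 ± 0.11 in ethanol isolates and 3.87 ± 0.23 in controls, U36773_g_at 3.67 ± 0.08 and 3.74 ± 0.22, U36771_g_at 3.53 ± 0.08 and 3.54 ± 0.08, and U36771_at 3.29 ± 0.21 and 3.39 ± 0.38 (SD, n = 3 and n = 4). All 5 Gpam differences were below 0, the lowest at -0.16 for U36772_at, and every interval included 0. With the group means removed, their correlations with U36773_at over 7 arrays were 0.15, 0.62, -0.13 and -0.05 in the order just given, so U36773_g_at followed it in part and the other 3 did not. The cause of this disagreement was not tested.

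Chka encodes choline kinase alpha, the enzyme that phosphorylates choline at the head of the CDP-choline route. Its brightest probe set, D10262_at, lay at 6.35, 7.23 and 7.71 in ethanol 2, 3 and 4, against 7.61, 7.13, 7.66 and 7.48 in controls 1 to 4. Ethanol 2 was the lowest of the 7 arrays and ethanol 4 the highest, so the ethanol animals spanned a wider range (SD 0.69) than the controls (SD 0.24). The difference of the means was -0.37 (SE 0.28, 95% confidence interval -1.005 to 0.26, limma adjusted p = 0.967). It rested on ethanol 2: without that array it was 0.0007, while without ethanol 4 it was -0.68 (unadjusted p = 0.0271, limma, in a fit where 4.27% of all probe sets were under 0.05).

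A second Chka probe set, E04239cds_s_at, was at 4.51, 5.34 and 5.05 in ethanol 2, 3 and 4, against 5.04, 4.52, 5.18 and 5.64 in controls 1 to 4. Ethanol 2 was again the lowest array, level with control 2. The other, D37884exon_s_at, was at 4.50, 4.68 and 4.45 in ethanol 2, 3 and 4, against 4.49, 4.49, 4.92 and 5.31 in controls 1 to 4. Here controls 3 and 4 stood above all the other arrays. The differences were -0.13 (95% confidence interval -0.73 to 0.47) and -0.26 (-0.72 to 0.20), which without control 4 became 0.06 and -0.09. With the group means removed, D10262_at correlated with E04239cds_s_at at 0.61 and with D37884exon_s_at at 0.10 over the 7 arrays, so the 3 readings of Chka agreed in part. Ethanol 2 and control 2 were also the arrays with the narrowest spread of log2 values over all probe sets, an SD of 1.34 and 1.29 against 1.36 to 1.46 on the others. After quantile normalization, which gives every array the same spread, the D10262_at difference was -0.46 (unadjusted p = 0.0719, limma).

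Pcyt1a encodes the alpha form of CTP:phosphocholine cytidylyl transferase, the rate-limiting enzyme of the route, which in mice is needed in lung epithelium for surfactant at birth. It was read by 1 probe set, rc_AA925887_at, at 4.76, 4.46 and 4.51 in ethanol 2, 3 and 4, against 4.45, 4.56, 4.55 and 4.60 in controls 1 to 4. Ethanol 2 was the highest array, and the other ethanol arrays lay within the control range. The mean was 4.58 ± 0.16 in ethanol isolates and 4.54 ± 0.06 in controls (SD, n = 3 and n = 4), near the 50% mark of the array. The difference of 0.04 had an interval of -0.23 to 0.30, which is 0.85 to 1.23 times the control level (limma adjusted p = 0.982).

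Pemt encodes the methyltransferase that turns phosphatidylethanolamine into phosphatidylcholine, a path used mainly in liver. Its probe set L14441_at lay at 5.24, 5.04 and 4.86 in ethanol 2, 3 and 4, against 4.69, 4.82, 4.97 and 4.99 in controls 1 to 4. Ethanol 2 and ethanol 3 were above all controls and ethanol 4 was not. The difference was 0.18 (95% confidence interval -0.12 to 0.48, limma adjusted p = 0.967), and 0.09 without ethanol 2.

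Pcyt2 and Pisd supply phosphatidylethanolamine. Pcyt2 encodes the ethanolamine phosphate cytidylyl transferase of the CDP-ethanolamine route. Its brighter probe set, AF080568_g_at, lay at 6.57, 6.60 and 6.59 in ethanol 2, 3 and 4, against 6.46, 6.71, 6.70 and 6.69 in controls 1 to 4. The 3 ethanol values were nearly the same (SD 0.01), and control 1 was the lowest of the 7. The difference was -0.06 (95% confidence interval -0.32 to 0.20, limma adjusted p = 0.971).

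The other Pcyt2 probe set, AF080568_at, was at 5.502, 5.19 and 5.33 in ethanol 2, 3 and 4, against 5.01, 5.02, 5.502 and 5.38 in controls 1 to 4. The groups overlapped, with controls 1 and 2 the lowest. Its difference was 0.11 (95% confidence interval -0.24 to 0.47, limma adjusted p = 0.971). The 2 probe sets thus disagreed in sign, and the mean of both gave 0.03.

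Pisd encodes the mitochondrial decarboxylase that makes phosphatidylethanolamine from phosphatidylserine. Its probe set rc_AI014094_at lay at 6.54, 6.25 and 6.31 in ethanol 2, 3 and 4, against 6.68, 6.79, 6.78 and 6.15 in controls 1 to 4. The second, rc_AI014094_g_at, lay at 6.34, 6.25 and 6.21 in ethanol 2, 3 and 4, against 6.66, 6.61, 6.66 and 6.14 in controls 1 to 4. In both, the 3 ethanol arrays were below controls 1 to 3 and above control 4. The differences were -0.23 (95% confidence interval -0.62 to 0.16) and -0.25 (-0.59 to 0.09), each with limma adjusted p = 0.967. Their size depended on single arrays. Without control 4 they were -0.38 and -0.37, with unadjusted p of 0.0193 and 0.0134 in limma, in a fit where 9.03% of all probe sets were under 0.05. With other arrays left out, rc_AI014094_at came to -0.17 without control 2 (unadjusted p = 0.359, limma). The other, rc_AI014094_g_at, came to -0.20 without control 3 (unadjusted p = 0.27, limma). The probe sets tracked each other closely, at 0.95 over 7 arrays with group means removed, and their names share a stem. They are therefore not independent readings.

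**Figure D2:**
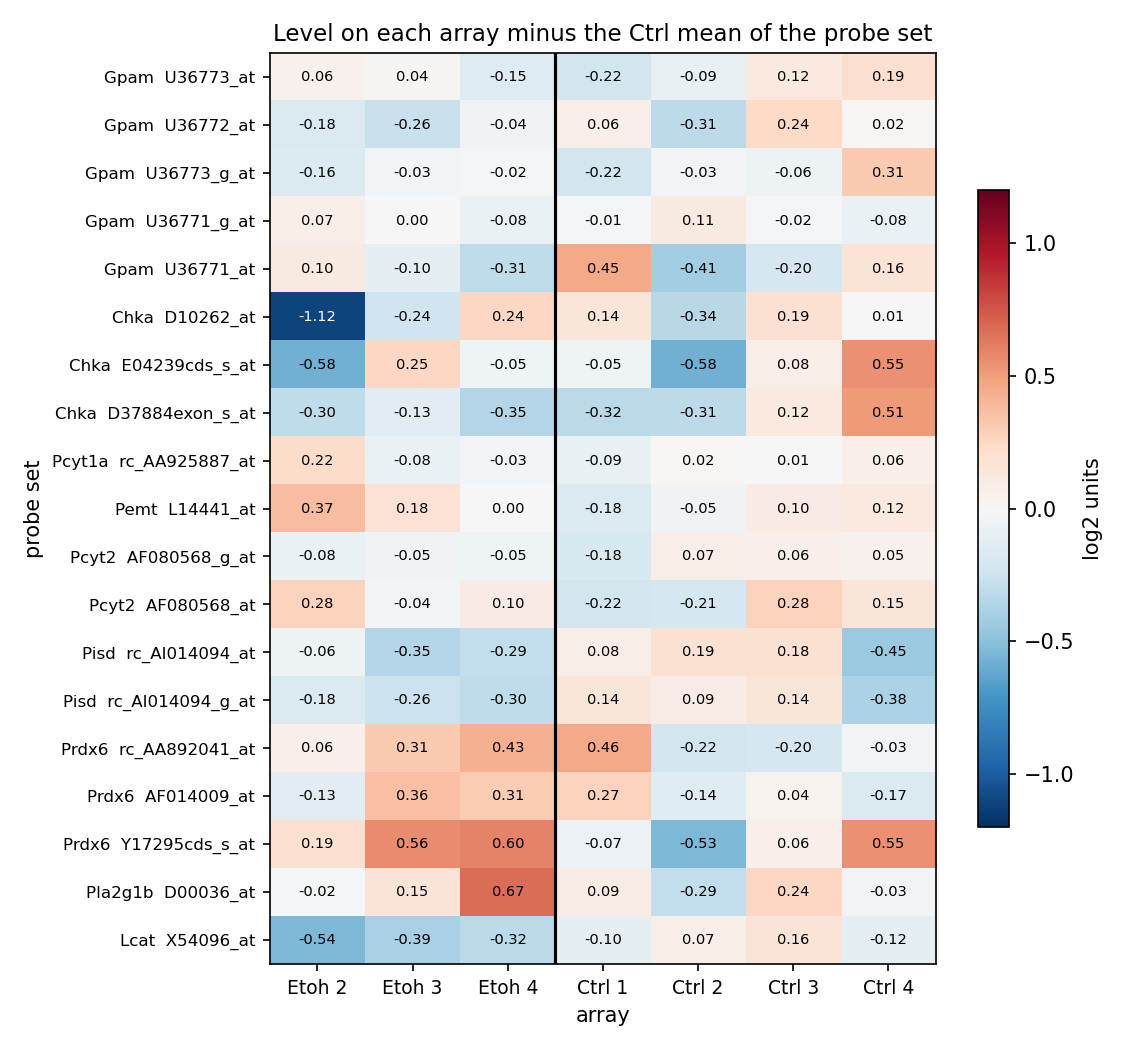
Level of each of the 19 probe sets (rows) on each array (columns, ethanol left of control) minus the control mean of that probe set, in log2 units, red above and blue below. Chka D10262_at is lowest in ethanol 2, both Pisd rows are lowest in control 4, and Lcat is the row with its 3 ethanol cells all below its 4 control cells.

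Turnover is read by 3 members. Prdx6 encodes a peroxiredoxin that also has phospholipase A2 activity and, in lung, takes part in breaking down dipalmitoyl phosphatidylcholine in lamellar bodies and lysosomes. Its probe set rc_AA892041_at lay at 8.03, 8.28 and 8.40 in ethanol 2, 3 and 4, against 8.43, 7.75, 7.77 and 7.94 in controls 1 to 4. The ethanol arrays were above controls 2 to 4, and control 1 was above them all. The difference was 0.27 (95% confidence interval -0.14 to 0.68, limma adjusted p = 0.967). Without each array in turn, it ran from 0.19 without ethanol 4 (unadjusted p = 0.4, limma) to 0.42 without control 1. The latter had an unadjusted p of 0.0184 in limma, in a fit where 3.38% of all probe sets were under 0.05.

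Prdx6 was read by a further pair of probe sets. AF014009_at lay at 6.87, 7.35 and 7.30 in ethanol 2, 3 and 4, against 7.27, 6.85, 7.04 and 6.82 in controls 1 to 4. Ethanol 3 and 4 were above every control and ethanol 2 was not, and the difference was 0.18 (95% confidence interval -0.19 to 0.55). Y17295cds_s_at lay at 6.61, 6.97 and 7.01 in ethanol 2, 3 and 4, against 6.34, 5.88, 6.47 and 6.96 in controls 1 to 4. Its ethanol arrays were above controls 1 to 3, with control 4 among them. Its difference, 0.45 (95% confidence interval -0.07 to 0.97, limma adjusted p = 0.967), was the highest of the 19, and stood at 0.27 without control 2 and 0.63 without control 4.

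All 3 Prdx6 differences were above 0, but the probe sets did not share their high and low arrays throughout. With group means removed, rc_AA892041_at and AF014009_at correlated at 0.78 over the 7 arrays, and Y17295cds_s_at correlated with them at 0.27 and 0.19. The mean of the 3 gave a difference of 0.30 (unadjusted p = 0.0842, limma). After quantile normalization the differences were 0.15 for rc_AA892041_at, 0.12 for AF014009_at and 0.43 for Y17295cds_s_at.

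Pla2g1b encodes the secreted phospholipase A2 best known from pancreatic juice and also made in lung. Its probe set D00036_at lay at 8.82, 8.99 and 9.51 in ethanol 2, 3 and 4, against 8.92, 8.54, 9.08 and 8.80 in controls 1 to 4. Of all probe sets, 98.9% had a lower control mean. Ethanol 4 was above every control and the other ethanol arrays lay within their range. The difference was 0.27 (95% confidence interval -0.16 to 0.69, limma adjusted p = 0.967), and 0.07 without ethanol 4.

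Because Pla2g1b is a gene of pancreatic acinar cells, the genes of that cell were read beside it. All 7 listed were measured, and their mean log2 level was 4.60 to 4.90 on ethanol arrays and 4.62 to 4.85 on controls. The trypsinogen gene Prss1 was at 3.88 ± 0.30 in ethanol isolates and 4.06 ± 0.38 in controls, and the amylase gene Amy2a3 at 3.00 ± 0.19 and 2.94 ± 0.17 (SD, n = 3 and n = 4). The chymotrypsinogen gene Ctrb1 was the brightest, at 6.08 ± 0.13 and 6.12 ± 0.12.

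Lcat encodes lecithin-cholesterol acyltransferase, a plasma enzyme made mainly in liver that moves a fatty acid from phosphatidylcholine to cholesterol. Its probe set X54096_at lay at 4.28, 4.43 and 4.50 in ethanol 2, 3 and 4, against 4.72, 4.89, 4.98 and 4.70 in controls 1 to 4. Every ethanol array was below the lowest control. Means were 4.40 ± 0.11 in ethanol isolates and 4.82 ± 0.13 in controls (SD, n = 3 and n = 4), and the difference was -0.42 (SE 0.12, 95% confidence interval -0.70 to -0.14). The unadjusted p was 0.00771, but the limma adjusted p was 0.967, so Lcat did not pass. Without each array in turn its difference ran from -0.47 to -0.35, with unadjusted p between 0.00841 and 0.0344.

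Lcat is a weak signal in the middle of the array's scale, in an isolate that holds other cells. In such bulk RNA, fewer cells of a type and less RNA per cell cannot be told apart. Of 6 measured hepatocyte markers, 3 were higher and 3 lower, with a mean log2 level of 4.14 to 4.42 on ethanol arrays and 4.26 to 4.66 on controls. By their brightest probe sets, the albumin gene Alb differed by -0.40, Apoa2 by -0.23 and Fgb by -0.10, and Tat by 0.12, Ttr by 0.03 and Serpina1 by 0.02. The 4 Alb probe sets disagreed in sign, with rc_AA866237_s_at at 0.32. Of 8 fibroblast and smooth muscle markers, 7 were lower, with a mean level of 5.37 to 5.52 on ethanol arrays and 5.47 to 6.03 on controls. The elastin gene Eln was at 5.60 ± 0.15 and 6.39 ± 0.30, and the decorin gene Dcn, the 1 that was higher, differed by 0.20. In limma 0 genes of either list passed at adjusted p under 0.05, with 0 hepatocyte and 5 fibroblast and smooth muscle markers at unadjusted p under 0.05, and their part in the Lcat difference was not tested.

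**Figure D3:**
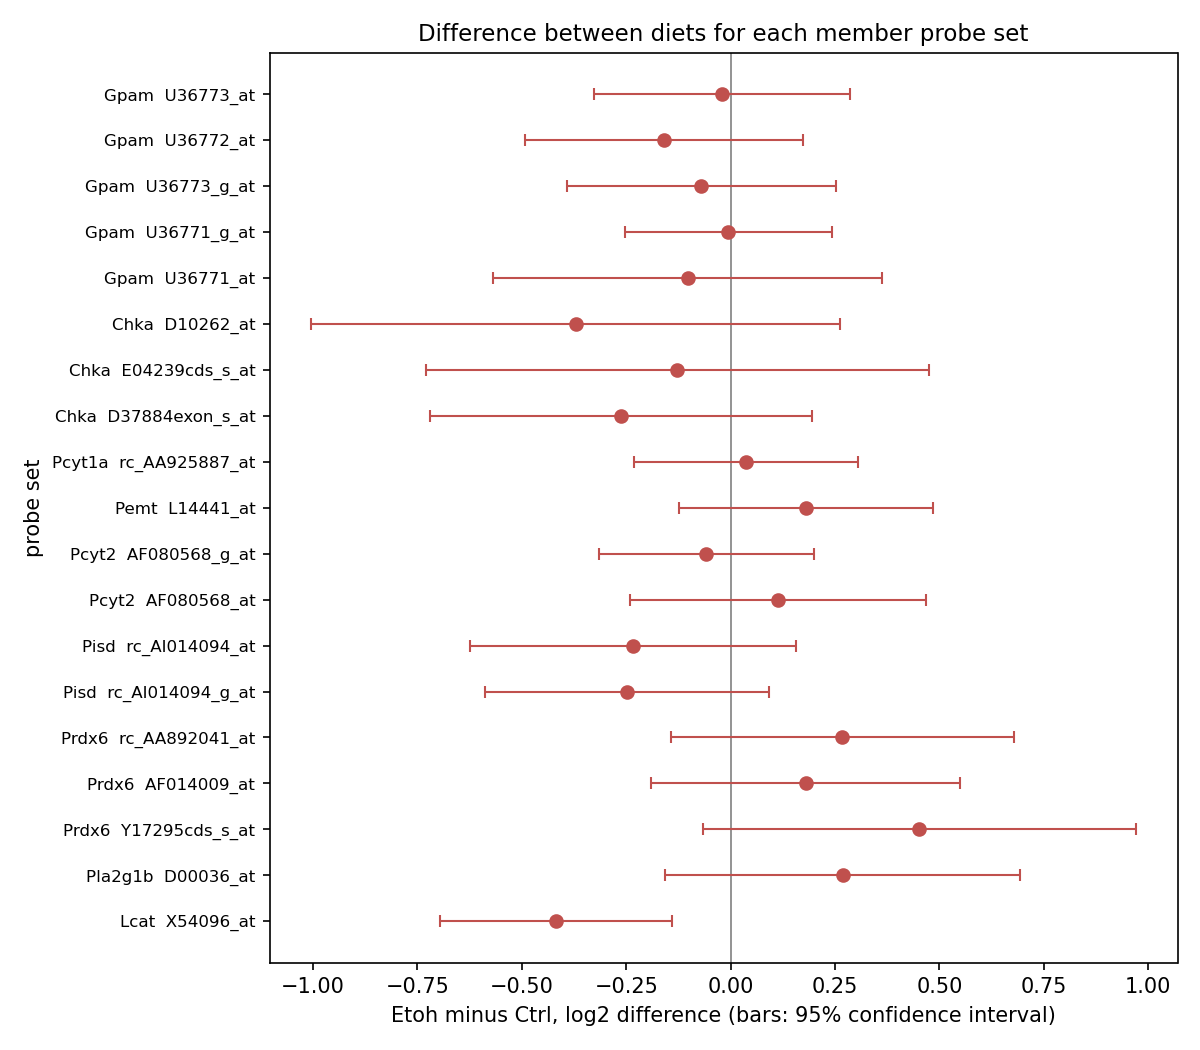
Ethanol minus control log2 difference (points) with its 95% confidence interval (bars) for each of the 19 probe sets. The interval of Lcat is the 1 that does not cross 0, and that of Chka D10262_at is the widest, from -1.005 to 0.26.

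The rest of the pathway was read from 3 lists of other genes, chosen with earlier results of these data known. Of 67 listed genes 40 were measured, by 70 probe sets. In limma 0 of the 40 passed at adjusted p under 0.05, and the lowest adjusted p was 0.906. By their brightest probe set, 21 were higher and 19 lower, with a median difference of 0.01. Of these 40, 2 had an unadjusted p under 0.05, 1 higher and 1 lower, against 4.58% of all probe sets. A count of 2 in 40 is near that share. The lipid exporter gene Abca3 and the lysophosphatidylcholine acyltransferase gene Lpcat1, both prominent in type 2 cells, were not analysed here.

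Among 12 measured genes of head-group and glycerolipid synthesis, 5 were higher and 7 lower, with a median of -0.05. Chkb, the second choline kinase gene, was at 6.40 ± 0.19 in ethanol isolates and 6.45 ± 0.15 in controls, a difference of -0.05. Dgka, a diacylglycerol kinase gene, had the lowest unadjusted p of the list by brightest probe sets (0.0973, limma), with a difference of 0.34 (95% confidence interval -0.07 to 0.75) and of 0.16 in its second probe set. The lipid phosphate phosphatase genes Plpp3, Plpp1 and Plpp2 were at 0.28, -0.16 and -0.10. The dimmest Plpp1 probe set, rc_AA818593_at, was at 0.41, against the sign of the brightest, with a lower unadjusted p than Dgka (0.0257, limma adjusted p = 0.967). Gpd2, the mitochondrial glycerol 3-phosphate dehydrogenase gene, was at -0.12.

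Among 20 measured genes of phospholipases and related hydrolases, 12 were higher and 8 lower, with a median of 0.02. Pafah1b1, a subunit gene of the intracellular platelet-activating factor acetylhydrolase, had the lowest unadjusted p. Its probe set rc_H31367_at averaged 5.85 ± 0.10 in ethanol isolates and 6.17 ± 0.05 in controls (SD, n = 3 and n = 4), a difference of -0.32 (SE 0.11, limma adjusted p = 0.967). A second probe set, AA801441_at, gave -0.34 and the dim rc_AI234730_at, -0.07. Pafah1b3, another subunit gene of that enzyme, was at -0.18.

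The cytosolic phospholipase A2 gene Pla2g4a was at 0.21 and the phospholipase C gene Plcg1 at -0.02. The lysophospholipase gene Lypla1 was dim in all 3 of its probe sets, at 0.18 in the brightest and -0.03 and -0.17 in the others. The lipoprotein lipase gene Lpl varied widely, at 5.14 ± 0.69 in ethanol isolates and 4.56 ± 0.79 in controls. Its difference of 0.59 had an interval of -0.38 to 1.55. Its probe sets L03294_at and L03294_g_at were at 0.87 and 0.68 (unadjusted p = 0.0578 and 0.0666, limma, each adjusted p = 0.967). The lysosomal acid lipase gene Lipa also varied widely, at 6.31 ± 0.59 and 5.81 ± 0.91 (difference 0.50, interval -0.52 to 1.52). Its probe set S81497_s_at was at 0.18 and rc_AA874784_s_at at -0.16.

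Among 8 measured carriers and transporters, 4 were higher and 4 lower, with a median of 0.02. Sec14l3, which encodes a lipid-binding protein of the SEC14 family, averaged 7.06 ± 0.37 in ethanol isolates and 5.95 ± 0.61 in controls (SD, n = 3 and n = 4), the largest difference of the 40 genes by their brightest probe sets. Its difference was 1.11 (95% confidence interval 0.42 to 1.81, limma adjusted p = 0.906), and the groups did not overlap, as was so for 5.24% of all probe sets. The apolipoprotein gene Apoe was at 0.28, the sterol carrier gene Scp2 at -0.13, the phosphatidylinositol transfer protein gene Pitpna at 0.05, and Abcb4, a phosphatidylcholine floppase gene, at -0.13. Club cell markers beside Sec14l3 had a mean level of 7.76 to 8.22 on ethanol arrays and 7.43 to 8.71 on controls over the 3 measured. Cyp2f4 and Aldh1a1 were higher with ethanol, as Sec14l3 was, by 0.43 and 0.30, and Scgb1a1 was at -0.05. In limma 0 of the 3 passed at adjusted p under 0.05, with 0 at unadjusted p under 0.05, and their part in the Sec14l3 difference was not tested.

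**Figure D4:**
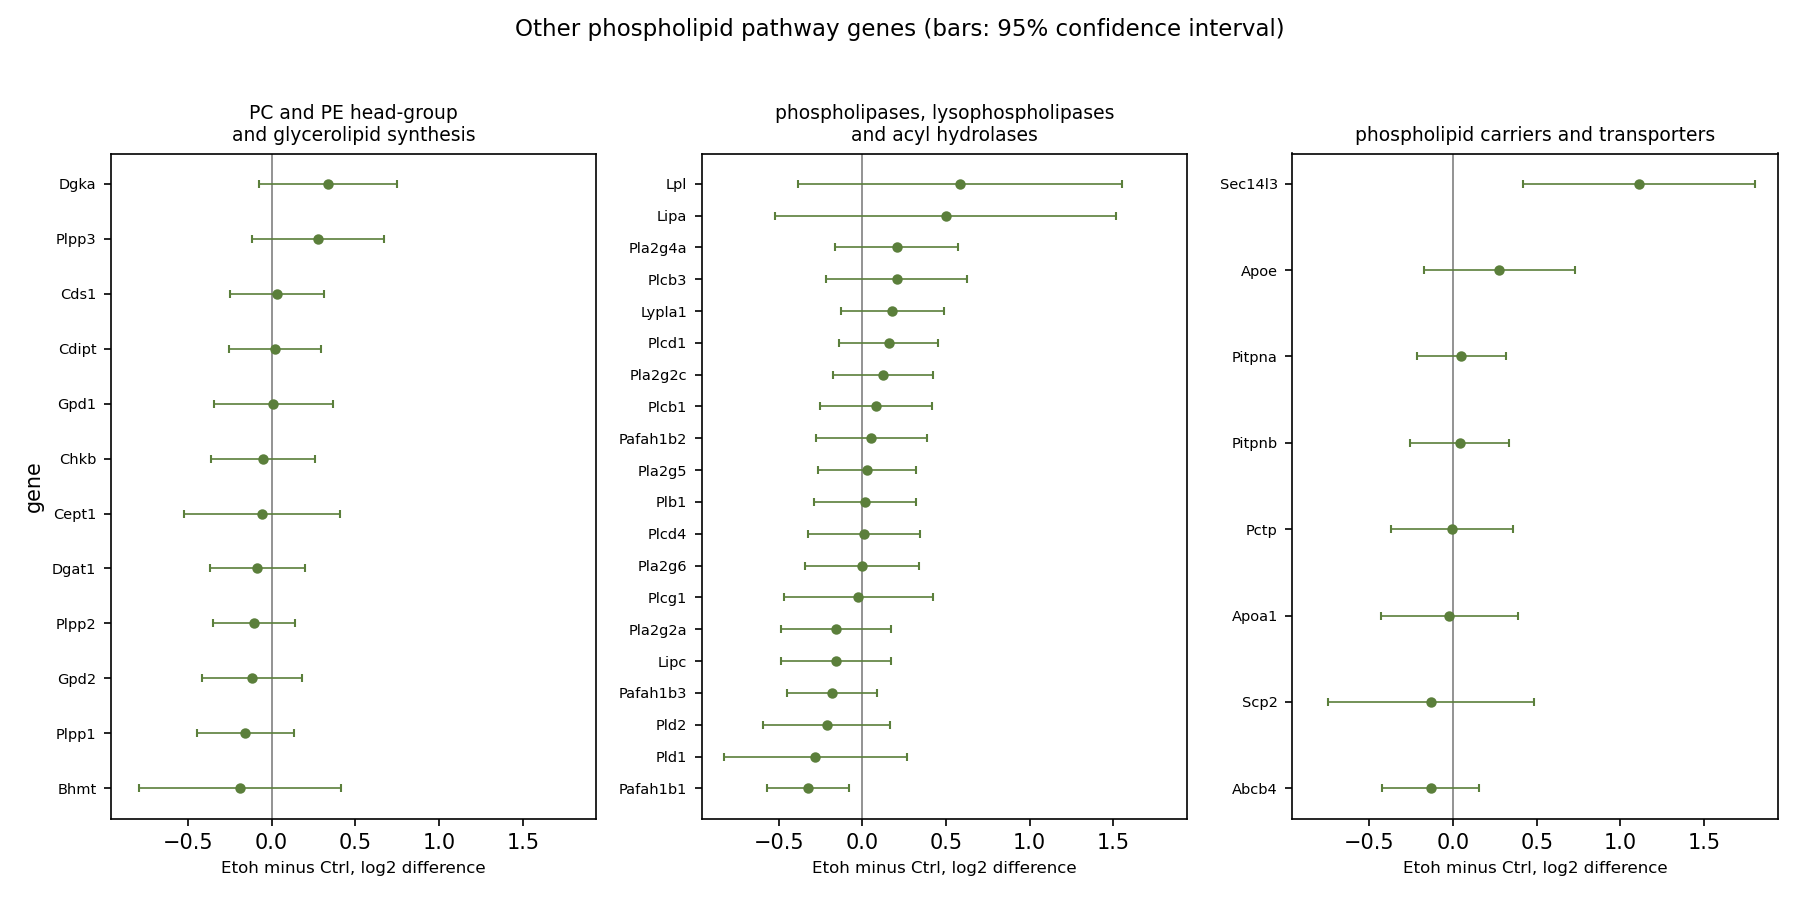
Ethanol minus control log2 difference with its 95% confidence interval for the 40 measured genes of the 3 pathway lists, each by its brightest probe set. Sec14l3, at 1.11, is set apart on the higher side, and Pafah1b1 at -0.32 has the other interval that does not cross 0.

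The genes most like each member from animal to animal were also looked up. For each member's brightest probe set, group means were removed and the Pearson correlation over the 7 arrays was taken with the 1084 to 1087 probe sets that had 1 symbol of another gene and a mean of at least 6. Over 7 arrays and so many candidates high values arise readily, and the best ran from 0.92 to 0.99 for the 9 members. These are descriptions of these arrays, which share their normalization and their overall spread.

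Chka D10262_at was most like Klf6, a zinc finger transcription factor gene (0.99), Acly, which encodes the ATP citrate lyase that supplies acetyl-CoA for lipid synthesis (0.99), and Fasn, the fatty acid synthase gene (0.98). Acly lay at 5.66, 6.47 and 6.80 in ethanol 2, 3 and 4, against 6.499, 6.07, 6.40 and 6.35 in controls 1 to 4. Fasn lay at 7.39, 8.40 and 8.84 in ethanol 2, 3 and 4, against 7.62, 7.19, 7.59 and 7.23 in controls 1 to 4. As in Chka, ethanol 2 was the lowest ethanol array and ethanol 4 the highest in both. The diet differences of these genes were not alike, at -0.37 for Chka, -0.02 for Acly and 0.80 for Fasn, and neither Acly nor Fasn passed (limma adjusted p = 0.997 and 0.967).

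Pla2g1b was most like Crip2, a LIM domain protein gene (0.97), Scd, the stearoyl-CoA desaturase gene (0.96), and Atn1 (0.96). Scd lay at 6.48, 7.05 and 7.92 in ethanol 2, 3 and 4, against 7.73, 6.94, 7.75 and 7.59 in controls 1 to 4. As in Pla2g1b, ethanol 4 was the highest array, and ethanol 2 and control 2 were each the lowest of their own group. Prdx6 rc_AA892041_at was most like Cpsf4 (0.98), the chaperone gene Hsp90ab1 (0.96) and Bsg (0.96), all with control 1 as their highest array. For Lcat the closest were Rbck1 (0.96), Snrnp70 (0.87) and Cox8a (0.84). The closest single gene was Ube2g2 for Pisd (0.96), Limk1 for Pcyt1a (0.96), S1pr2 for Pemt (0.98), Araf for Pcyt2 (0.94) and Fshr for Gpam (0.92).

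**Figure D5:**
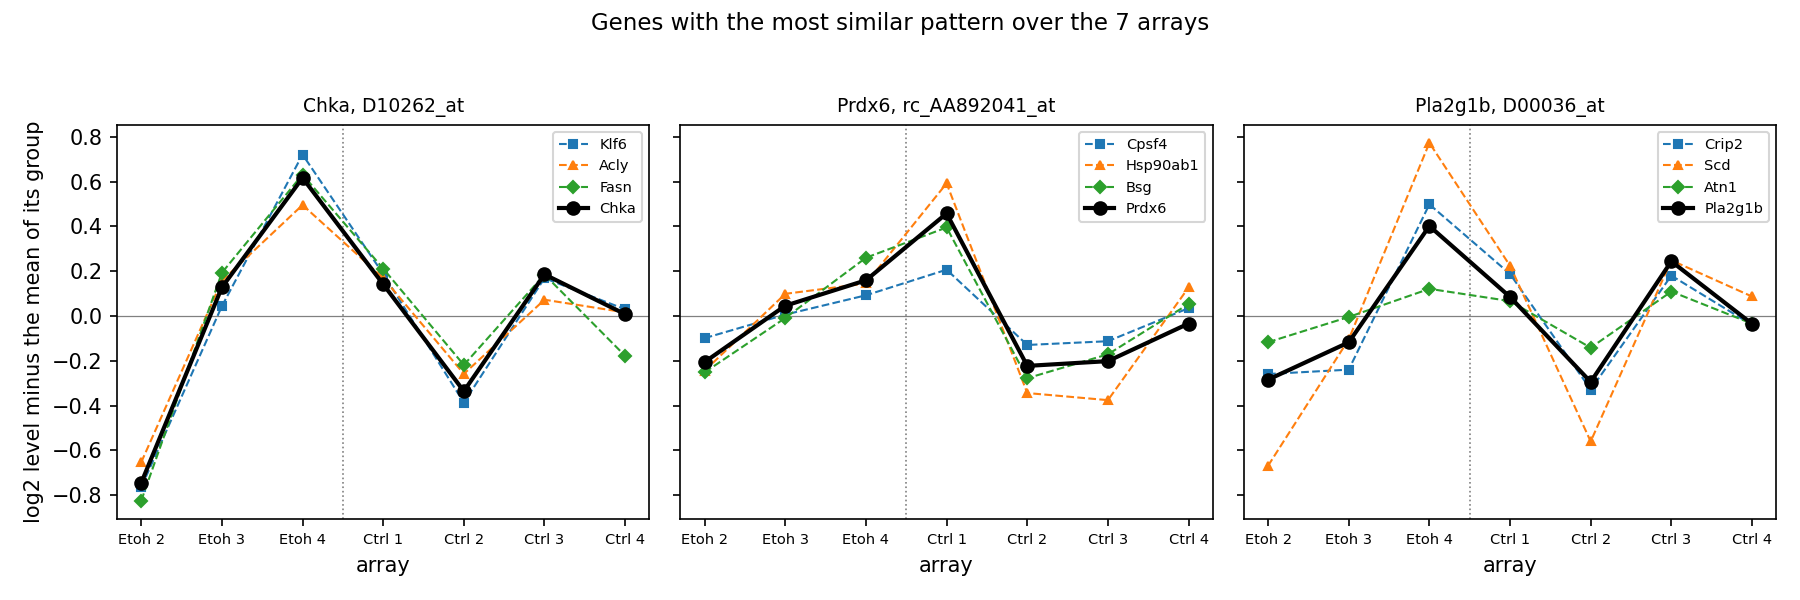
Log2 level minus the mean of its own group on each array (ethanol left of the dotted line, control right) for Chka, Prdx6 and Pla2g1b (black) and the 3 genes most like each (dashed). Chka, Klf6, Acly and Fasn are low in ethanol 2 and high in ethanol 4, and the Prdx6 group is highest in control 1.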

How the data were processed

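Expression arrays of alveolar type 2 cell isolates from 3 ethanol-fed and 4 control rats were used. The authors deposited 1 value per probe set and array, read here as log2 values from their range (1.65 to 12.84) and equal array means. Summarisation, background correction and normalization are not given in the sources used here, and no detection calls were used. The array's 59 control probe sets were dropped. Of the other 8740, 7006 had 1 gene symbol in the platform annotation, 308 several and 1426 none, and 6985 matched RefSeq genes by Entrez identifier with 0 symbols changed.

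Each probe set was fitted with limma 3.58.1 in R 4.3.3 (diet group as the only term, two-sided, Benjamini-Hochberg adjustment over 8740). Errors are SD unless SE is written, and the number of arrays limits the precision. All probe sets of the 9 genes were named. From the pathway lists, genes were named by the 5 lowest p and 3 highest levels of each list, and printed ones were picked from these after their values were seen. Pathway genes were represented by their brightest probe set. Markers were printed as examples from fixed lists. The members and lists were chosen with earlier results of these data known. The model was run on simulated data (20 simulations, 200 changed of 8740 probe sets, 4.96% of calls false). Simulated noise was drawn independently for each probe set and array, so the false share is no check where probe sets vary together. Alternatives were quantile normalization, median centring, leaving out probe sets with a mean under 4, trended and robust or no moderation, array weights, the replicate number as a block, leaving out 1 array at a time, and averaging the probe sets of a gene. Plots used matplotlib 3.10.9 (Python 3.11.15).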

Additional observations from a re-analysis of the deposited data

Results flagged for a closer look

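Among the 4 controls, the outermost array was set against the range of the group for 37 probe sets, the 19 of the 9 genes and 18 of the named pathway genes. In 3 of the 37 it stood apart by more than Dixon's 95% critical value allows, where chance gives about 1 in 20. The Pcyt2 probe set AF080568_g_at was at 6.46 in control 1 and 6.69 to 6.71 in the other controls. The Pisd probe set rc_AI014094_g_at was at 6.14 in control 4 and 6.61 to 6.66 in the others. The transporter gene Abcb4 was at 5.20 in control 1 and 5.499 to 5.55 in the others.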

How the results depend on the processing

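Over 15 ways of fitting, reported and alternative, 0 of the 19 probe sets passed adjusted p under 0.05. The number at unadjusted p under 0.05 was 1 as reported (4.58% of all probe sets), 5 with array weights (11.8%), 3 with the replicate block (8.12%), and 1 to 4 with each array left out, the 4 without control 4 (9.03%). The higher counts with array weights, with the block and without control 4 came in fits with a higher share over all probe sets. The count was 2 without control 1 (3.38%) and 2 without ethanol 4 (4.27%), where that share was not above the reported fit. Lcat was among the counted member probe sets every time. The count over all probe sets was 13, 0 without variance moderation (367 at unadjusted p under 0.05) and 23 with the replicate block. Among pathway genes the block gave 1, Sec14l3 (difference 1.31, adjusted p = 0.0154), and every other fit gave 0. Ethanol and control arrays with the same replicate number correlated at 0.43, 0.07 and 0.43 after group means were removed. Those with different numbers correlated at -0.53 to 0.35, so these values do not settle whether the numbers pair animals. No label says that they do, and they were not taken as pairs. The block also sets control 1 aside.

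Of 267 alternative differences, 249 kept their sign and 18 did not, over 9 probe sets, and 10 probe sets kept it throughout. Gpam U36771_g_at was 0.003 after quantile normalization, 0.0068 with median centring and 0.0115 with array weights, and -0.0414 to 0.0335 with each array left out, with 0.0298 without control 2 and 0.0335 without ethanol 4. Gpam U36771_at was 0.0471 with the replicate block and without control 1, down to -0.2408 without control 2. Gpam U36773_at was 0.02 without control 3, 0.0426 without control 4 and 0.0455 without ethanol 4, down to -0.0937, and U36773_g_at 0.0342 without control 4, down to -0.1432. Chka D10262_at was 0.0007 without ethanol 2 and -0.6796 without ethanol 4, and E04239cds_s_at 0.0551 without control 4 and 0.0989 without ethanol 2, down to -0.3195 without control 2. Pcyt1a was -0.0201 with array weights and -0.0543 to 0.0918 with each array left out, the lowest without ethanol 2. Pcyt2 AF080568_at was -0.0613 with array weights, and the mean of both Pcyt2 probe sets 0.0275. The cause was not tested. Leaving out dim probe sets removed 4 of the 19, all of Gpam. Dim probe sets may understate differences.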
